A study of Avena sativa with 108 samples.

Results

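The genes described here are the oat genes for metal binding and metal transport in the grain: metallothioneins, ferritins, vacuolar iron transporters, the enzymes that make and use nicotianamine, the transporters of metal-nicotianamine complexes, and zinc transporters. They were chosen by name alone, as every row of the deposited tables of estimated counts whose protein description contained metallothionein, ferritin, nicotianamine, vacuolar iron transporter, metal-nicotianamine transporter or zinc transporter, and 164 of 68572 genes met this rule. They comprised 19 metallothioneins, 7 ferritins, 11 vacuolar iron transporters, 19 nicotianamine synthases, 21 nicotianamine aminotransferases, 45 metal-nicotianamine transporters and 42 zinc transporters. RNA-seq was carried out on CDC Morrison and AC Morgan, 2 Canadian spring cultivars of hexaploid oat, in 108 samples that fall into 36 groups of 3 replicates. Whole developing grain of each cultivar was collected at 5, 10, 15, 20, 25, 30, 35 and 40 days after panicle emergence (DPE), which gave 48 samples. Embryo and endosperm were separated from grain of each cultivar germinated on damp filter paper and sampled at 0, 3, 6, 24 and 48 h, which gave 30 samples of each tissue. The gene names are best matches to proteins of rice, barley, maize, wheat, Arabidopsis, chickpea, papaya and red fescue, and roles given below were established in those species. Each gene is given by the part of its identifier that follows AVESA.00001b.r3., in which the first characters are the chromosome (5A, 5C or 5D).

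Metals such as iron, zinc and copper are needed in the embryo and aleurone but are toxic when free, so grain cells bind or enclose them. Metallothioneins are small cysteine-rich proteins that bind copper and zinc, ferritin forms shells in plastids that hold iron, and vacuolar iron transporters move iron, zinc and manganese into the vacuole. Nicotianamine synthase makes nicotianamine from S-adenosylmethionine, and this small chelator keeps metals soluble in phloem and cytoplasm. In grasses nicotianamine aminotransferase carries nicotianamine towards the mugineic acids that bind ferric iron, YSL proteins carry the metal-chelator complexes across membranes, and ZIP proteins bring zinc into the cytoplasm.

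Depth was between 11235846 and 30846412 estimated counts in the 47 developing grain libraries used, and between 3895703 and 39871377 in the 60 germination libraries. The metal genes together made up 0.0731% to 0.311% of each developing grain library and 0.128% to 0.598% of each germination library. The 0.128% belonged to replicate 2 of CDC Morrison endosperm at 0 h, which was kept. In it the 10 genes with the most counts held 40.5% of all counts, against 7.62% to 21.2% in the other endosperm libraries at 0 h. Replicate 1 of CDC Morrison at 10 DPE held 2184611 counts. It is absent from the authors' normalized table, whose libraries were the ones used, and was left out. CDC Morrison thus had 2 libraries at 10 DPE. Values below are CPM, the counts of a gene set to a common library size after TMM scaling, and they are compared between samples and not between genes, since they are not divided by gene length. Embryo and endosperm differed in storage transcripts at 0 h: the summed avenins, the oat prolamins, were 1170 to 5130 CPM in embryo and 27700 to 62400 CPM in endosperm. The knotted-1 and WUSCHEL-related homeobox genes did not separate the tissues at 0 h (116 to 147 CPM in embryo and 136 to 226 CPM in endosperm). At 10 DPE the chlorophyll a-b binding protein genes were at 1930 and 2440 CPM in CDC Morrison and at 218 to 525 CPM in AC Morgan, and at 30 DPE the avenins were at 6540 to 28500 CPM in CDC Morrison and at 51200 to 66400 CPM in AC Morgan. By the study's methods, each replicate of developing grain was a pool of grains from a single panicle. Neither these methods nor the labels say whether replicates came from separate plants, so p-values measure the spread between these samples. In bulk tissue, fewer cells of a type and less RNA per cell cannot be told apart.

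Of the 164 genes, 133 reached a count of 5 in at least 5% of the developing grain libraries and 134 did so in the germination libraries. The other 31 and 30 genes had no count above 8 in developing grain and none above 10 in germination, and 8 and 5 of them were at 0 in every library. Nicotianamine synthases and zinc transporters made up most of these, with 5 of 19 and 28 of 42 passing in developing grain and 6 of 19 and 30 of 42 in germination. Among the 7 ferritins and 11 vacuolar iron transporters, all passed in developing grain.

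The first question was when in grain development these genes were expressed. Over the 8 times, 128 of 133 genes changed (edgeR's quasi-likelihood method, Benjamini-Hochberg adjusted, threshold 0.05), against 89.4% of all genes tested. Of 118 genes whose mean reached 1 CPM at some time, 20 had their highest mean at 5 DPE, 25 at 20 DPE and 25 at 40 DPE, with 3 to 15 at each of the other times. At 15 DPE against 5 DPE, 89 genes were called, 63 higher and 26 lower, where 50.6% of all genes were called, 23.3% higher and 27.3% lower. The median log2 fold change was 0.75 over the 133 metal genes and -0.09 over all genes. The 18 avenin genes, markers of starchy endosperm, summed to 52700 to 141000 CPM at 15 DPE and 16.5 to 72.6 CPM at 5 DPE, and the part of this change in grain tissues was not tested. All 11 vacuolar iron transporters were higher (10 with library size alone), together with 26 of 44 metal-nicotianamine transporters, with 4 lower (19 and 13 with library size alone). For scaling by library size alone, which moved the median of all genes to -1.20, the split was 47 higher and 56 lower. Metallothioneins were 8 higher and 4 lower, or 8 and 9 with library size alone, and nicotianamine aminotransferases were 9 higher and 3 lower, or 4 and 8. Of 5 nicotianamine synthases tested, 3 were higher and 1 lower, of 7 ferritins 3 were lower, and of 28 zinc transporters 6 were higher and 11 lower.

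At 25 DPE against 15 DPE, 40 metal genes were called, 26 higher and 14 lower, against 32.2% of all genes, 17.1% higher and 15.2% lower. With library size alone the split was 30 higher and 7 lower. Their median log2 fold change was 0.11, and that of all genes was 0.01. At 40 DPE against 25 DPE, 96 were called, 32 higher and 64 lower, against 61.5% of all genes, 26.7% higher and 34.8% lower, with medians of -0.66 for the metal genes and -0.20 for all genes. Here 22 of 44 metal-nicotianamine transporters, 12 of 20 nicotianamine aminotransferases, 9 of 18 metallothioneins and 8 of 11 vacuolar iron transporters were lower, and 5 of 7 ferritins were higher. The commonest course, found in 28 genes (21.1%, against 6.78% of all genes), was a rise from 5 to 15 DPE, no call from 15 to 25 DPE and a fall from 25 to 40 DPE. Among 116 other metal handling genes tested (metal tolerance proteins, Nramp transporters, copper ATPases and similar families), 44 were higher and 34 lower at 15 against 5 DPE, 30 and 19 at 25 against 15 DPE, and 41 and 30 at 40 against 25 DPE.

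Metallothionein genes of developing grain ran in opposite directions. The class II metallothionein-like gene 1Cg0001463, matched to rice protein 1A, was nearly absent from young grain, with medians of 0.0552 CPM at 5 DPE and 0.0293 CPM at 10 DPE. Its median was 5.0 CPM at 15 DPE, 21.3 CPM at 20 DPE, 70.2 CPM at 25 DPE, 259 CPM at 30 DPE, 476 CPM at 35 DPE and 277 CPM at 40 DPE. All 6 libraries at 25 DPE, at 54.7 to 151 CPM, were above the 6 libraries at 15 DPE, at 2.52 to 12.6 CPM. The log2 fold change was 3.73 ± 0.52 (SE, adjusted p = 6.74e-07, edgeR's quasi-likelihood method, Benjamini-Hochberg adjusted) at 25 against 15 DPE and 2.25 ± 0.48 (adjusted p = 0.000121) at 40 against 25 DPE. The metallothionein 2 gene 3Cg0000320 was lowest in the youngest grain, at 14.8 to 36.9 CPM at 5 DPE, and stood at 78.3 to 190 CPM at 15 DPE, 66.0 to 129 CPM at 25 DPE and 180 to 417 CPM at 40 DPE. It rose at 15 against 5 DPE (log2 fold change 2.63), fell at 25 against 15 DPE (-0.82, with overlapping libraries) and rose at 40 against 25 DPE (1.78 ± 0.25, adjusted p = 1.44e-07).

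The metallothionein 2C genes went the other way. Libraries at 40 DPE held 4.59 to 20.0 CPM of 3Dg0002674, against 147 to 322 CPM at 5 DPE, and its level at 15 DPE was 36.6 to 141 CPM. The 5 DPE libraries were thus above all others of these times, and the log2 fold change at 15 against 5 DPE was -1.44 ± 0.35 (adjusted p = 0.00085, edgeR's quasi-likelihood method, Benjamini-Hochberg adjusted). 7Ag0000076 fell likewise at 15 against 5 DPE, by 2.29 ± 0.42 on the log2 scale (adjusted p = 2.86e-05), with means of 34.3 CPM at 15 DPE and 209 CPM at 5 DPE and 1 or more libraries that overlapped. The metallothionein 3B gene 3Dg0000256 was a gene of the middle of grain filling. Its median was 0.18 CPM at 5 DPE, 15.6 CPM at 15 DPE, 27.4 CPM at 20 DPE, 16.3 CPM at 25 DPE and 0 CPM at 40 DPE, where the highest library held 0.386 CPM. The rise at 15 against 5 DPE was 5.76 ± 0.65 on the log2 scale (adjusted p = 5.27e-09). 3Ag0000802, a type 3 metallothionein by its papaya match, also had its highest median at 20 DPE, with 1.06 CPM at 5 DPE, 24.7 CPM at 15 DPE, 40.3 CPM at 20 DPE and 1.55 CPM at 40 DPE.

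**Figure D1:**
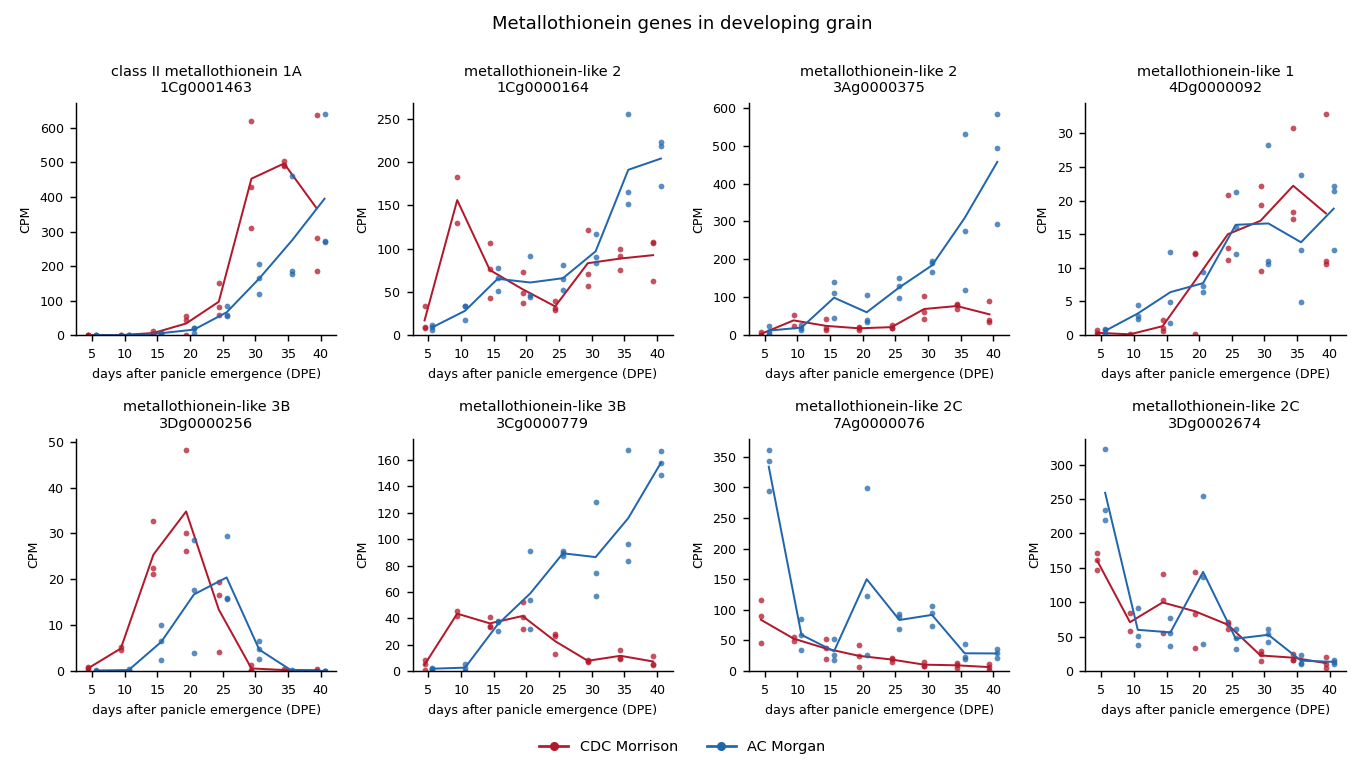
CPM of 8 metallothionein genes against days after panicle emergence, 1 panel per gene, with points for libraries and lines for means of CDC Morrison (red) and AC Morgan (blue). 1Cg0001463 has medians of 476 CPM at 35 DPE and 277 CPM at 40 DPE, while 3Dg0002674 is highest at 5 DPE (147 to 322 CPM) and lowest at 40 DPE (4.59 to 20.0 CPM).

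The 3 ferritin-1 copies on 5A, 5C and 5D, matched to maize ferritin-1, were lower at 15 DPE than at 5 DPE and higher again in mature grain. Summed over the 7 ferritins, the libraries held 182 to 305 CPM at 5 DPE, 103 to 127 CPM at 15 DPE and 460 to 571 CPM at 40 DPE, and none of these ranges overlapped. For 5Ag0001957, the values were 40.2 to 71.6 CPM at 5 DPE, 17.0 to 24.5 CPM at 15 DPE, 42.5 to 57.9 CPM at 25 DPE and 151 to 192 CPM at 40 DPE. Its log2 fold change was -1.42 at 15 against 5 DPE, 1.37 ± 0.22 at 25 against 15 DPE (adjusted p = 7.2e-06) and 1.74 ± 0.22 at 40 against 25 DPE (adjusted p = 1.96e-08, edgeR's quasi-likelihood method, Benjamini-Hochberg adjusted). The copies on 5C and 5D, 5Cg0001505 and 5Dg0001526, were called in the same directions at all 3 steps. Reads of such close copies are divided among them by the quantification, so that the share of each copy is uncertain. The ferritin-1 gene 4Dg0000040 was at 18.2 to 27.1 CPM at 5 DPE, 19.9 to 33.8 CPM at 15 DPE and 32.6 to 64.0 CPM at 40 DPE. The 2 genes matched to Arabidopsis ferritin-4 did not share this course: 5Cg0001983 stood at 4.43 to 6.45 CPM at 40 DPE, against 7.0 to 11.8 CPM at 25 DPE.

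Vacuolar iron transporters showed a division by type. Genes matched to rice VIT2 were genes of grain filling: 5Cg0001991 was at 0.288 to 0.94 CPM at 5 DPE, 13.5 to 23.0 CPM at 15 DPE, 13.3 to 34.3 CPM at 20 DPE and 0.0468 to 0.346 CPM at 40 DPE. It was 4.87 ± 0.48 higher on the log2 scale at 15 against 5 DPE (adjusted p = 1.73e-10) and 5.90 ± 0.60 lower at 40 against 25 DPE (log2 fold change -5.9, adjusted p = 2.21e-10, edgeR's quasi-likelihood method, Benjamini-Hochberg adjusted). The 5D copy, 5Dg0001929, averaged 0.182 CPM at 40 DPE and 6.07 CPM at 25 DPE, a log2 fold change of -5.14 ± 0.65 (adjusted p = 2.25e-08). Genes matched to rice VIT1 were highest in mature grain instead. 2Ag0001327 was at 0.029 to 0.36 CPM at 5 DPE, 0.399 to 2.14 CPM at 15 DPE, 2.56 to 5.88 CPM at 25 DPE and 6.83 to 9.82 CPM at 40 DPE, so that each of these times lay above the one before. The 2C copy, 2Cg0002052, averaged 7.13 CPM at 40 DPE and 2.19 CPM at 25 DPE (log2 fold change 1.74 ± 0.24, adjusted p = 1.08e-07).

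The nicotianamine synthase genes 6Ag0002886 and 5Dg0002983, both matched to barley NAS9, were highest from 15 to 25 DPE. Summed over the class, libraries held 0.213 to 0.705 CPM at 5 DPE, 8.72 to 22.5 CPM at 25 DPE and 0.252 to 2.94 CPM at 40 DPE. For 6Ag0002886, the 25 DPE libraries held 4.34 to 12.1 CPM and the 40 DPE libraries 0.0468 to 2.34 CPM, without overlap. It fell by 4.08 on the log2 scale at 40 against 25 DPE, or by 5.65 without replicate 1 of CDC Morrison at 40 DPE, the library with 2.34 CPM.

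Nicotianamine aminotransferases again fell into groups by match. 2Ag0001064, matched to barley NAATB, was at 11.8 to 20.0 CPM at 15 DPE, 6.87 to 11.8 CPM at 25 DPE and 0 to 0.441 CPM at 40 DPE. The fall at 40 against 25 DPE was -6.0 ± 0.81 on the log2 scale (adjusted p = 7.66e-08, edgeR's quasi-likelihood method, Benjamini-Hochberg adjusted). The rice NAAT1 match 7Dg0001839 went up through development, with medians of 0.542 CPM at 5 DPE, 2.91 CPM at 15 DPE, 14.5 CPM at 25 DPE and 25.2 CPM at 40 DPE. At 25 against 15 DPE its log2 fold change was 2.41 ± 0.40 (adjusted p = 1.31e-05), with 8.82 to 17.8 CPM at 25 DPE and 0 to 3.95 CPM at 15 DPE. The 7A copy, 7Ag0002821, was 1.84 ± 0.27 higher at 25 against 15 DPE (adjusted p = 1.93e-06), although 1 or more libraries overlapped.

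**Figure D2:**
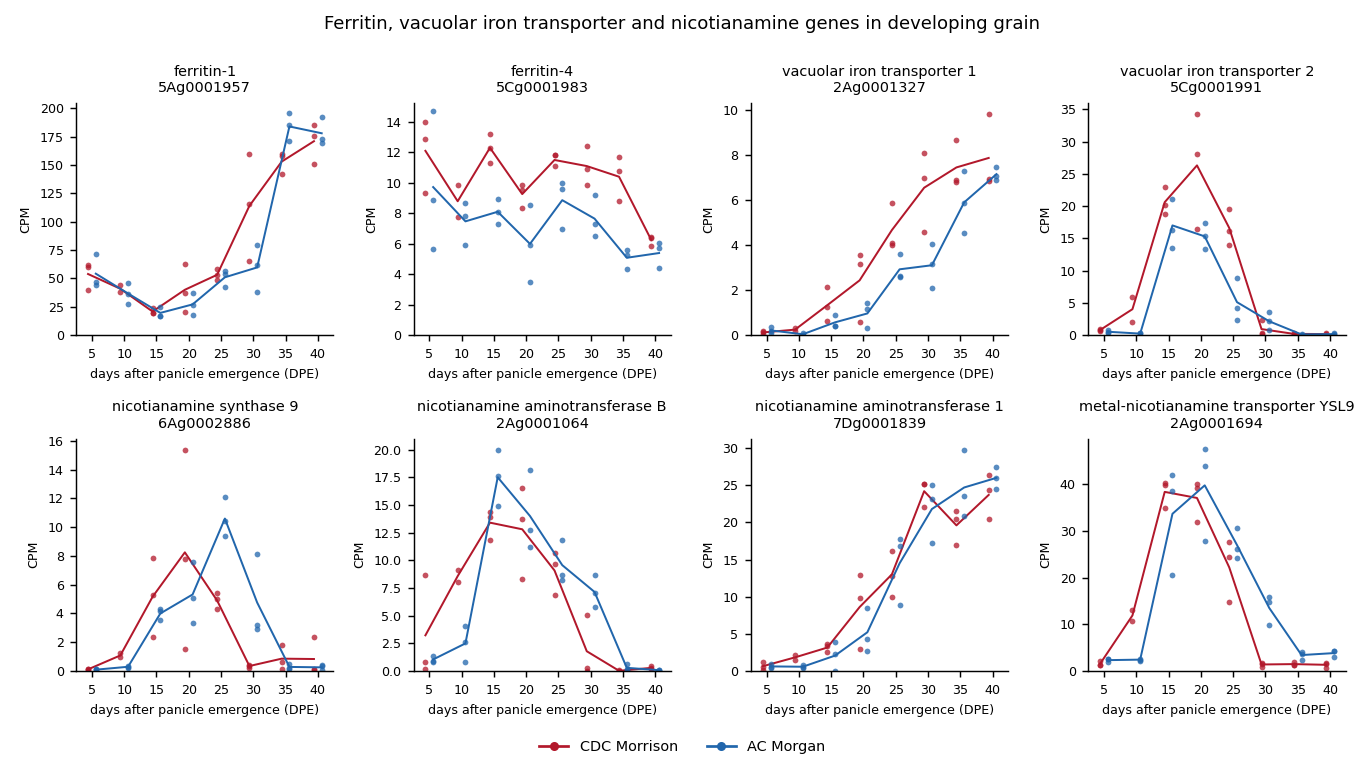
CPM of 8 genes of iron storage and nicotianamine metabolism against days after panicle emergence, with points for libraries and lines for means of CDC Morrison (red) and AC Morgan (blue). Ferritin-1 (5Ag0001957) is highest at 35 and 40 DPE (142 to 196 and 151 to 192 CPM), and VIT1 (2Ag0001327) and NAAT1 (7Dg0001839) are highest from 30 DPE on. VIT2 (5Cg0001991), NAS9 (6Ag0002886), NAATB (2Ag0001064) and YSL9 (2Ag0001694) are highest between 15 and 25 DPE.

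Metal-nicotianamine transporters summed to 123 to 167 CPM at 5 DPE, 309 to 464 CPM at 20 DPE and 233 to 308 CPM at 40 DPE. YSL9 in rice carries iron complexes into the developing embryo. 2Ag0001694 had 1.20 to 2.53 CPM at 5 DPE, 20.5 to 42.0 CPM at 15 DPE, 27.9 to 47.5 CPM at 20 DPE and 0.662 to 4.30 CPM at 40 DPE. Its log2 fold change at 15 against 5 DPE was 4.24 ± 0.23 (adjusted p = 1.95e-17, edgeR's quasi-likelihood method, Benjamini-Hochberg adjusted), with no overlap. The YSL12 match 2Cg0002338 averaged 5.55 CPM at 15 DPE and 0.141 CPM at 5 DPE (log2 fold change 5.04 ± 0.37, adjusted p = 9.82e-14). YSL6, a manganese transporter in rice, was found in several copies, of which 2Dg0003549 was at 7.31 to 10.1 CPM at 5 DPE, 29.7 to 72.9 CPM at 20 DPE and 21.4 to 29.4 CPM at 40 DPE. The YSL13 genes 2Ag0001622 and 2Dg0001546 fell at 25 against 15 DPE, by 1.36 ± 0.38 (adjusted p = 0.00573) and by 1.09 ± 0.24 (adjusted p = 0.000566) on the log2 scale. YSL14 (6Dg0001038) was highest late, at 34.2 to 58.6 CPM at 40 DPE, against 20.6 to 26.3 CPM at 25 DPE, with a log2 fold change of 0.86.

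Zinc transporters of developing grain had differing courses. ZIP4 (7Cg0002017), a zinc uptake transporter in rice, averaged 2.26 CPM at 15 DPE and 8.09 CPM at 5 DPE, a fall of 1.89 ± 0.21 on the log2 scale (adjusted p = 2.52e-09, edgeR's quasi-likelihood method, Benjamini-Hochberg adjusted). ZIP7 (1Cg0000570) averaged 1.14 CPM at 15 DPE and 5.34 CPM at 5 DPE (log2 fold change -2.24 ± 0.26, adjusted p = 5.42e-09). ZIP10 (7Dg0001999) was a late gene, at 9.11 to 13.7 CPM at 40 DPE, against 1.96 to 4.85 CPM at 25 DPE, with a log2 fold change of 2.07 ± 0.30 (adjusted p = 2.39e-07). The putative zinc transporter 1Cg0000773, matched to Arabidopsis At3g08650, was at 18.7 to 23.5 CPM at 5 DPE and at 23.6 to 34.5 CPM at 40 DPE, the 2 ends of its course. The Arabidopsis ZTP29 matches 6Ag0000277 and 6Cg0002051 were called higher at 15 against 5 DPE (log2 fold changes 0.68 and 0.58) but lower with library size alone (-0.46 and -0.56).

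Germination was examined next, in separated tissues. In embryo at 6 h against 0 h, 58 of 134 genes were called, 28 higher and 30 lower, against 41.3% of all genes, 21.2% higher and 20.2% lower. With library size alone, which moved the median of all genes from 0.09 to 0.48, the split was 45 and 17. Of the classes, metal-nicotianamine transporters were 14 higher and 3 lower and ferritins 2 higher and 5 lower. Metallothioneins were 5 higher and 7 lower, zinc transporters 3 and 7, and nicotianamine aminotransferases 1 and 5, and these 3 splits became 6 and 5, 5 and 3, and 6 and 0 with library size alone. In embryo at 48 h against 0 h, 97 genes were called, 69 higher and 28 lower, against 67.9% of all genes, 40.2% higher and 27.7% lower. The median log2 fold change was 0.95 over the metal genes, or 0.92 with genes absent from a group set at their bound, and 0.31 over all genes. Over the same step in embryo the summed avenins were at 15.5 to 36.9 CPM at 48 h, against 1170 to 5130 CPM at 0 h, the alpha-amylase genes at 424 to 1790 CPM, against 1.36 to 8.57 CPM, and the chlorophyll a-b binding protein genes at 120 to 1050 CPM, against 8.99 to 13.2 CPM, and their part was not tested. By class, 24 of 43 metal-nicotianamine transporters, 14 of 30 zinc transporters, 12 of 18 metallothioneins, 11 of 20 nicotianamine aminotransferases and 5 of 6 nicotianamine synthases were higher, and 5 of 7 ferritins were lower.

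Fewer metal genes were called in endosperm at the early time. At 6 h against 0 h, 7 were called there, 5 higher and 2 lower, against 3.91% of all genes, 2.99% higher and 0.922% lower, and with library size alone 13 were higher and 2 lower. The count was 4 without replicate 3 of AC Morgan endosperm at 0 h, and 4 without replicate 3 of CDC Morrison endosperm at 6 h. At 48 h against 0 h, 78 were called, 55 higher and 23 lower, against 54% of all genes, 29.1% higher and 24.9% lower, with a median log2 fold change of 0.78 (0.50 with genes absent from a group at their bound) and 0.13 over all genes. They included 16 higher and 6 lower metal-nicotianamine transporters, 12 and 3 zinc transporters, 10 and 4 metallothioneins, and 8 and 1 nicotianamine aminotransferases. Both tissues had the same call at 48 h in 52 genes, 34 higher and 18 lower, against 35.6% of all genes, 18.4% higher and 17.1% lower. Among 119 other metal handling genes, 35 were higher and 48 lower in embryo at 48 h, and 25 and 37 in endosperm.

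Metallothionein genes changed in both directions within 48 h. The transcript of 1Cg0001463, the gene that had built up late in grain development, was lost from embryo: medians were 668 CPM at 0 h, 386 CPM at 3 h, 109 CPM at 6 h, 0.399 CPM at 24 h and 0.0706 CPM at 48 h. In endosperm they were 1660 CPM at 0 h, 1740 CPM at 3 h, 952 CPM at 6 h, 215 CPM at 24 h and 31.0 CPM at 48 h. In both tissues every library at 48 h was below every library at 0 h, and the log2 fold change was -12.2 ± 0.62 in embryo (adjusted p = 7.3e-22) and -5.90 ± 0.46 in endosperm (adjusted p = 2.97e-15, edgeR's quasi-likelihood method, Benjamini-Hochberg adjusted). 3Cg0000320 fell in both tissues as well, to 101 to 141 CPM in embryo at 48 h, against 482 to 860 CPM at 0 h (log2 fold change -2.50 ± 0.25, adjusted p = 2.69e-12).

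Other metallothioneins rose. 3Ag0000802 was at 249 to 903 CPM in embryo at 48 h, against 1.22 to 7.38 CPM at 0 h, a log2 fold change of 7.97 ± 0.79 (adjusted p = 9.47e-12, edgeR's quasi-likelihood method, Benjamini-Hochberg adjusted). 3Dg0000256 was at 250 to 749 CPM in embryo at 48 h, against 0 to 2.04 CPM at 0 h (log2 fold change 10.7 ± 1.11, adjusted p = 4.77e-11). In whole grain at 40 DPE these genes had been at 1.22 to 3.14 CPM and 0 to 0.386 CPM. The metallothionein 2C gene 4Dg0003380 averaged 120 CPM at 48 h and 0.337 CPM at 0 h (log2 fold change 8.45 ± 0.93, adjusted p = 1.49e-10). In endosperm 3Ag0000802 was at 24.3 to 571 CPM at 48 h, against 0 to 0.272 CPM at 0 h (log2 fold change 11.7 ± 1.23, adjusted p = 7.88e-11). The highest of these libraries was replicate 3 of AC Morgan, which also held the highest endosperm values at 48 h of 3Dg0000256 (367 CPM), 3Cg0000779 (295 CPM), 4Dg0000092 (110 CPM) and NAS9 (95.9 CPM). Its chlorophyll a-b binding protein genes summed to 21.4 CPM, against 8.62 to 18.5 CPM in the other 5 endosperm libraries and 120 to 1050 CPM in embryo at 48 h, and the part of embryo tissue in these values was not tested.

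The 5 ferritin-1 genes fell in both tissues. Embryo libraries held 102 to 174 CPM of ferritins at 48 h, against 634 to 1060 CPM at 0 h, and endosperm libraries 70.8 to 159 CPM at 48 h, against 481 to 739 CPM at 0 h. 5Ag0001957 was 2.85 ± 0.28 lower on the log2 scale in embryo at 48 h (adjusted p = 2.52e-12) and 3.15 ± 0.29 lower in endosperm (log2 fold changes -2.85 and -3.15, adjusted p = 4.12e-13 in endosperm, edgeR's quasi-likelihood method, Benjamini-Hochberg adjusted). Embryo ferritins were already lower at 6 h: 5Cg0001505 averaged 62.1 CPM in embryo, against 214 CPM at 0 h, a log2 fold change of -1.99 ± 0.18 (adjusted p = 3.24e-12). At 6 h it was at 25.9 to 39.4 CPM in CDC Morrison and 80.7 to 103 CPM in AC Morgan, against 197 to 269 and 171 to 211 CPM at 0 h. The other ferritin-1 genes were likewise lower in every CDC Morrison embryo library at 6 h, which was not tested at the single time. In endosperm 5Cg0001505 was at 74.1 to 173 CPM at 6 h, against 102 to 163 CPM at 0 h, and the libraries of these times overlapped. There too CDC Morrison was lower at 6 h, at 74.1 to 111 CPM, against 122 to 173 CPM in AC Morgan. The ferritin-4 genes were exceptions, with 5Cg0001983 higher in endosperm at 48 h, at 5.17 to 12.4 CPM, against 2.06 to 6.12 CPM at 0 h (log2 fold change 1.34, adjusted p = 0.000586).

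Vacuolar iron transporters of the VIT1 type fell as well. In embryo, 2Ag0001327 was at 0.719 to 3.54 CPM at 6 h, against 6.66 to 10.3 CPM at 0 h, a log2 fold change of -2.50 ± 0.25 (adjusted p = 2.97e-11, edgeR's quasi-likelihood method, Benjamini-Hochberg adjusted). In endosperm it was at 6.75 to 12.1 CPM at 6 h and 0.243 to 1.05 CPM at 48 h, against 8.64 to 14.8 CPM at 0 h, and the log2 fold change at 48 h was -4.33 ± 0.29 (adjusted p = 4.37e-17). The fall by 48 h was smaller in embryo, by 2.32 on the log2 scale (adjusted p = 2.44e-06 for the difference between tissues). VIT2 genes were higher instead: 5Dg0001929 was at 3.15 to 8.91 CPM in embryo at 48 h, against 0 to 0.246 CPM at 0 h. The vacuolar iron transporter homolog 2 gene 2Dg0001609 was a gene of the endosperm, at 27.4 to 81.0 CPM there at 48 h, against 0.688 to 3.27 CPM at 0 h (log2 fold change 4.43), whereas no embryo library exceeded 1.05 CPM at any time.

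Nicotianamine synthase genes rose in embryo. 6Ag0002886 had medians of 0.824 CPM at 0 h, 1.72 CPM at 3 h, 7.1 CPM at 6 h, 58.0 CPM at 24 h and 77.6 CPM at 48 h. The copy 5Dg0002983 averaged 47.1 CPM at 48 h and 0.124 CPM at 0 h, a log2 fold change of 8.41 ± 0.79 (adjusted p = 5.54e-12, edgeR's quasi-likelihood method, Benjamini-Hochberg adjusted). Endosperm reached 5.10 to 95.9 CPM of 6Ag0002886 at 48 h, where replicate 3 of AC Morgan was again the highest. Of the aminotransferases, the NAAT1 match 7Dg0001839 marked dry embryo. It was at a median of 56.9 CPM and no less than 38.3 CPM in embryo, against 1.01 to 4.38 CPM in endosperm, at 0 h, without overlap, a log2 fold change of 4.04 ± 0.31 (adjusted p = 1.03e-14). It fell by 1.13 in embryo and rose by 1.43 in endosperm on the log2 scale at 48 h, and the difference between these changes was 2.56 (log2 difference -2.56, adjusted p = 1.19e-06).

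**Figure D3:**
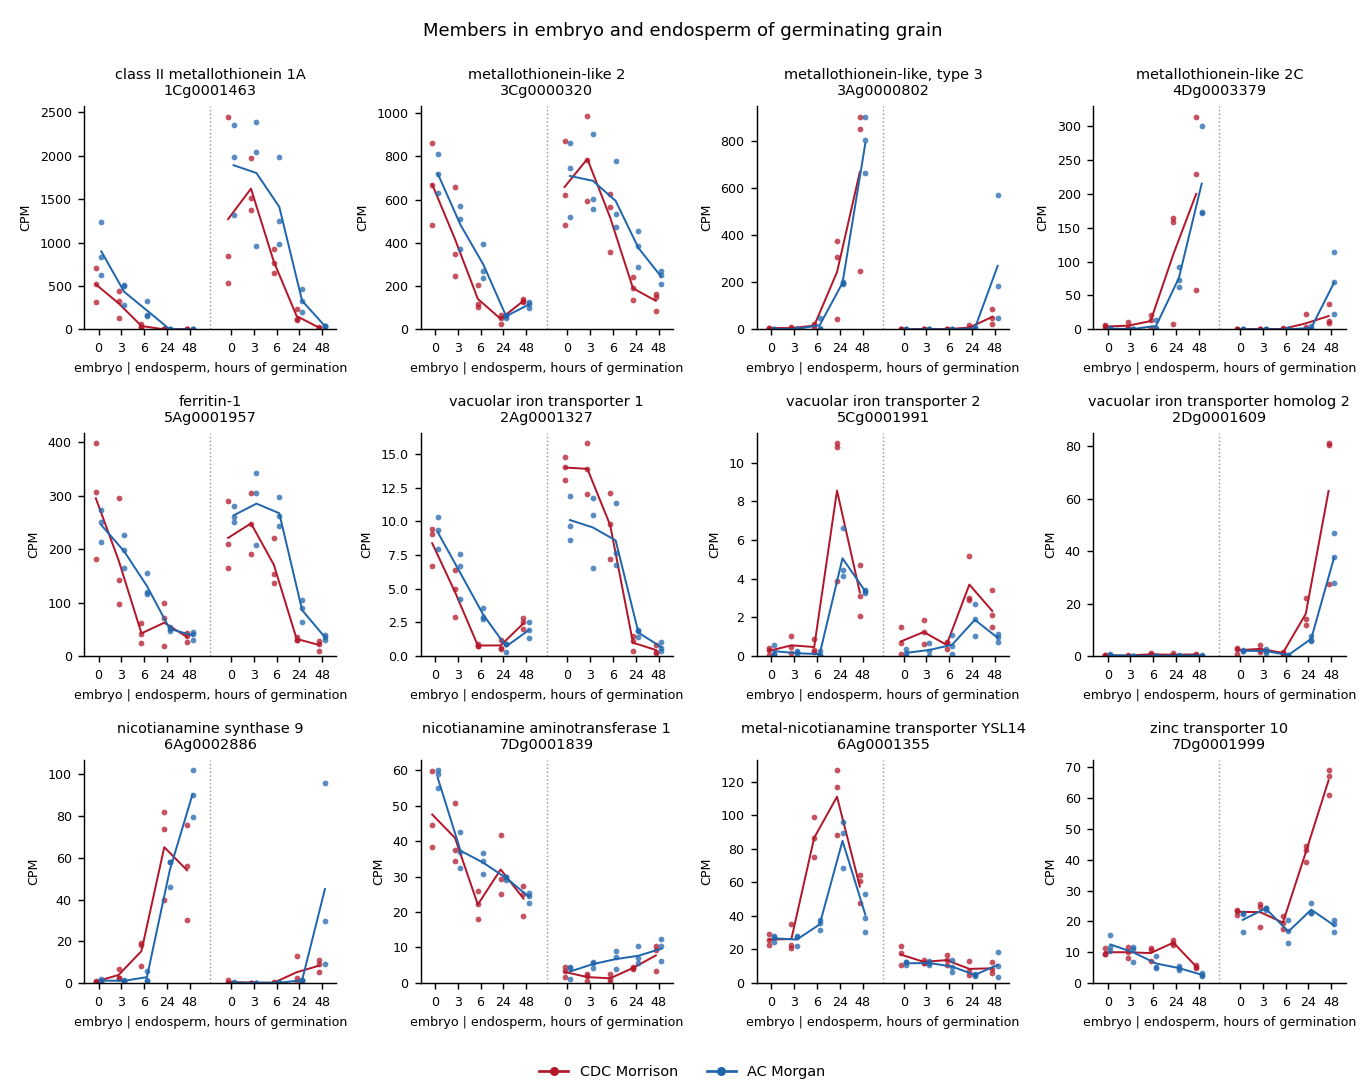
CPM of 12 metal genes at 0, 3, 6, 24 and 48 h of germination, with embryo on the left and endosperm on the right of each panel, points for libraries and lines for means of CDC Morrison (red) and AC Morgan (blue). 1Cg0001463 runs out in embryo by 24 h (0.159 to 0.968 CPM), while 3Ag0000802 reaches 249 to 903 CPM there at 48 h.

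Among metal-nicotianamine transporters, YSL13 rose within 6 h in both tissues. Its gene 2Dg0001546 was at 20.6 to 66.2 CPM in endosperm at 6 h, against no more than 15.7 CPM at 0 h, without overlap (log2 fold change 2.24 ± 0.37, adjusted p = 0.000102, edgeR's quasi-likelihood method, Benjamini-Hochberg adjusted). In embryo it averaged 13.5 CPM at 6 h and 1.32 CPM at 0 h (log2 fold change 3.36 ± 0.42, adjusted p = 8.66e-09). In both tissues the medians were lower again at 48 h, at 2.21 CPM in embryo and 6.89 CPM in endosperm. YSL14 (6Ag0001355) had embryo medians of 26.6 CPM at 0 h, 56.3 CPM at 6 h, 92.8 CPM at 24 h and 50.4 CPM at 48 h, while those of endosperm at the same times were 12.3, 12.1, 5.1 and 9.18 CPM. YSL6 (2Dg0003548) was higher in endosperm than in embryo at 48 h, with 4.30 to 5.92 CPM in embryo and 31.5 to 117 CPM in endosperm (log2 fold change of embryo over endosperm -3.55 ± 0.17, adjusted p = 1.23e-22).

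The summed zinc transporters were higher in endosperm at the end of the series, at 210 to 399 CPM in endosperm at 48 h, against 152 to 193 CPM at 0 h, without overlap. ZIP10 (7Ag0002971) was at 10.2 to 70.6 CPM in endosperm at 48 h, against 2.28 to 4.38 CPM at 0 h (log2 fold change 3.34), and at 1.23 to 3.35 CPM in embryo at 48 h. The change by 48 h was lower in embryo by 3.52 on the log2 scale (log2 difference -3.52, adjusted p = 5.06e-14, edgeR's quasi-likelihood method, Benjamini-Hochberg adjusted). The ZTP29 match 7Dg0001797, named after its values were seen, was at 0 in all 6 embryo libraries at 0 h and at 1.91 to 2.69 CPM at 48 h, at least 52.5-fold higher against a floor of 3 counts over the group.

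**Figure D4:**
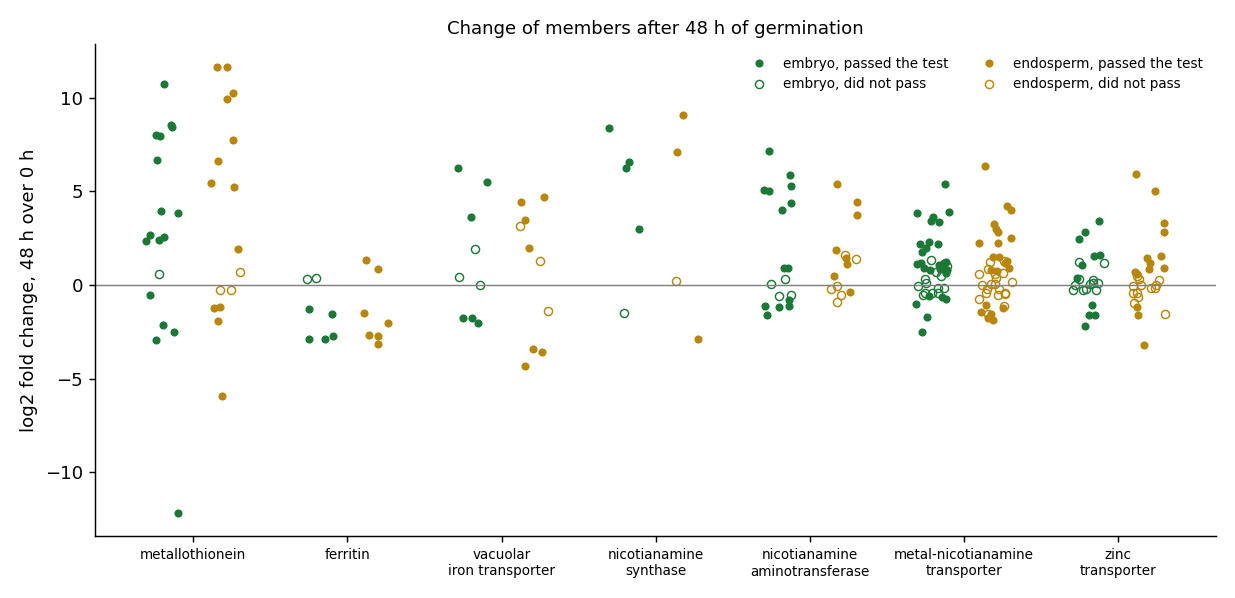
Log2 fold change at 48 h against 0 h of each metal gene by class in embryo (green) and endosperm (gold), with filled points for genes that passed the test; genes with a group at 0 in all libraries are left out. Ferritins lie below 0 in both tissues apart from the ferritin-4 genes, and the nicotianamine synthases called in embryo lie above 0.

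Between tissues, 56 metal genes differed at 0 h, 31 higher and 25 lower in embryo, against 38.7% of all genes, 22.6% higher and 16.2% lower. With library size alone, which moved the median of all genes from 0.12 to 0.69, the split was 51 and 12. At 48 h 104 differed, 62 higher and 42 lower in embryo, against 61.4% of all genes, 35.8% higher and 25.6% lower. Of 18 metallothioneins 14 were higher in embryo at 48 h and 4 lower, and of 43 metal-nicotianamine transporters 12 were higher and 18 lower. 3Cg0000779, a metallothionein 3B gene, averaged 569 CPM in embryo and 95.4 CPM in endosperm at 48 h (log2 fold change 2.76 ± 0.50, adjusted p = 6.82e-06, edgeR's quasi-likelihood method, Benjamini-Hochberg adjusted). 1Cg0001463 was at 0 to 0.952 CPM in embryo and 9.37 to 42.8 CPM in endosperm at 48 h (log2 fold change -7.48 ± 0.54, adjusted p = 2.34e-16). The change by 48 h itself differed between tissues in 43 genes, 15 more positive and 28 more negative in embryo, against 34.7% of all genes, 15.1% and 19.6%. That split was 20 and 23 with DESeq2's size factors in edgeR, 28 and 26 with DESeq2 itself, and 13 and 41 with library size alone.

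The cultivars were compared last. In developing grain, averaged over the 8 times, 51 metal genes differed, 31 higher and 20 lower in CDC Morrison, against 34.7% of all genes, 16.9% higher and 17.8% lower, and with library size alone the split was 21 and 21. Metal-nicotianamine transporters were 12 higher and 9 lower (9 and 10 with library size alone), zinc transporters 7 and 5 (4 and 5), and metallothioneins 5 and 5. The marker genes above differed between the cultivars at 10 and 30 DPE. With these times left out of the average, though not of the fit, 34 genes were called, against 27.2% of all genes. With 10 DPE alone left out of it 44 were called, against 34.7% of all genes. Of the 51 genes, 31 and 37 were among these. Called at single times were 2 genes higher and 10 lower at 5 DPE (4.72% and 4.9% of all genes), 33 and 14 at 10 DPE (14.4% and 11.2%), and 9 and 7 at 15 DPE (4.22% and 5.16%). There were 9 and 6 at 20 DPE (6.86% and 6.5%), 3 and 8 at 25 DPE (4.37% and 5.23%), and 19 and 31 at 30 DPE (16.9% and 19.1%). At 35 DPE 11 genes were higher and 9 lower (5.63% and 6.98%), and 5 and 9 at 40 DPE (5.76% and 7.13%). In both directions together, 9.61% of all genes were called at 5 DPE, 25.6% at 10 DPE and 36% at 30 DPE, and 9.38%, 13.4%, 9.6%, 12.6% and 12.9% at 15, 20, 25, 35 and 40 DPE. The difference between cultivars varied with time in 48 metal genes, against 27.6% of all genes.

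In 3 of 133 genes (2.26%), against 4.03% of all genes, no library of one cultivar overlapped the other at any of the 8 times. YSL6 gene 7Dg0001152 was higher in CDC Morrison, at 16.2, 11.9 and 11.5 CPM in CDC Morrison, against 2.31, 2.66 and 1.62 CPM in AC Morgan at 5 DPE. At 40 DPE it was at 16.5, 14.8 and 17.1 CPM in CDC Morrison, against 9.70, 12.7 and 9.81 CPM in AC Morgan. Over all times its log2 fold change was 1.46 ± 0.12 (adjusted p = 1.56e-12, edgeR's quasi-likelihood method, Benjamini-Hochberg adjusted). The aminotransferase 7Ag0000878, matched to barley NAATA, was lower in CDC Morrison, its log2 fold change over all times being -1.15 ± 0.10 (adjusted p = 1.81e-12). At 40 DPE it stood at 6.05, 6.56 and 4.80 CPM in CDC Morrison, against 9.92, 10.8 and 10.3 CPM in AC Morgan. A second YSL6 gene, 7Dg0000024, was at or near 0 in CDC Morrison, with 0.056, 0.0494 and 0.0596 CPM in the 3 libraries that had any count, against 0.399 to 2.45 CPM in AC Morgan. Reads of both cultivars were mapped to a single oat reference transcriptome. Whether gene absence, sequence differences or the division of reads among copies had a part in these lasting cultivar differences was not tested.

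The same 3 genes differed in germination. 7Dg0001152 had a log2 fold change of 1.17 ± 0.13 in embryo over the 5 times (adjusted p = 3.22e-10, edgeR's quasi-likelihood method, Benjamini-Hochberg adjusted), with means of 18.1 CPM in CDC Morrison, against 8.24 CPM in AC Morgan. 7Ag0000878 averaged 4.23 CPM in CDC Morrison, against 8.66 CPM in AC Morgan embryo (log2 fold change -1.02 ± 0.09, adjusted p = 3.78e-13). 7Dg0000024 was at 0 in all CDC Morrison embryo libraries and averaged 1.14 CPM in AC Morgan embryo, at least 138-fold lower in CDC Morrison against a floor of 3 counts over the group. YSL16 gene 2Dg0001630, whose rice match carries copper-nicotianamine, differed at maturity. At 40 DPE it was at 11.2, 8.19 and 10.2 CPM in CDC Morrison, against 1.05, 0.948 and 1.61 CPM in AC Morgan, which gave a log2 fold change of 3.03 ± 0.38 (adjusted p = 1.58e-07).

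Of the metallothioneins, the 3B gene 3Cg0000779 changed order between the cultivars with time. It was at 45.2 and 41.8 CPM in CDC Morrison, against 5.12, 0.093 and 2.36 CPM in AC Morgan at 10 DPE. The order was opposite at 40 DPE, with 5.45, 4.68 and 11.5 CPM in CDC Morrison, against 149, 167 and 158 CPM in AC Morgan. The libraries did not overlap at either time, and the log2 fold change was 4.10 at 10 DPE (5.20 without replicate 1 of AC Morgan) and -4.45 ± 0.68 at 40 DPE (adjusted p = 5.67e-06, edgeR's quasi-likelihood method, Benjamini-Hochberg adjusted). 3Ag0000375, a metallothionein 2 gene, was lower in CDC Morrison over all times (-1.72 ± 0.23, adjusted p = 7.1e-08), with 34.8, 40.7 and 89.0 CPM in CDC Morrison, against 292, 584 and 494 CPM in AC Morgan at 40 DPE. It was lower in CDC Morrison in germination too, by 2.67 ± 0.28 on the log2 scale in embryo (adjusted p = 5.29e-11) and by 1.86 ± 0.27 in endosperm (adjusted p = 2.37e-07). At 5 DPE 7Ag0000076 was at 45.7, 89.8 and 116 CPM in CDC Morrison, against 362, 295 and 344 CPM in AC Morgan. Its log2 fold change over all times was -1.71 ± 0.22 (adjusted p = 2.43e-08).

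At 10 and 30 DPE, the 2 times with the most calls, the order of the cultivars was opposite for YSL9. 2Ag0001694 was at 10.8 and 13.1 CPM in CDC Morrison, against 2.23, 2.65 and 2.42 CPM in AC Morgan at 10 DPE, but at 1.46, 0.917 and 1.81 CPM in CDC Morrison, against 15.9, 14.7 and 9.84 CPM in AC Morgan at 30 DPE. The log2 fold changes were 2.29 ± 0.31 at 10 DPE (adjusted p = 5.52e-07) and -3.25 ± 0.32 at 30 DPE (adjusted p = 5.62e-10, edgeR's quasi-likelihood method, Benjamini-Hochberg adjusted). VIT1 (2Cg0002052) was higher in CDC Morrison at 30 DPE, with 7.64, 6.69 and 3.54 CPM in CDC Morrison, against 1.99, 2.61 and 2.44 CPM in AC Morgan (log2 fold change 1.33 ± 0.33, adjusted p = 0.00179). The chlorophyll a-b binding protein genes differed between the cultivars at 10 DPE as given above, where the avenins were at 21.2 and 49.9 CPM in CDC Morrison and at 19.5 to 22.2 CPM in AC Morgan. At 30 DPE the avenins differed, and the chlorophyll a-b binding protein genes were at 7.44 to 9.21 CPM in CDC Morrison and at 33.0 to 109 CPM in AC Morgan. The part of these markers in the values was not tested.

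**Figure D5:**
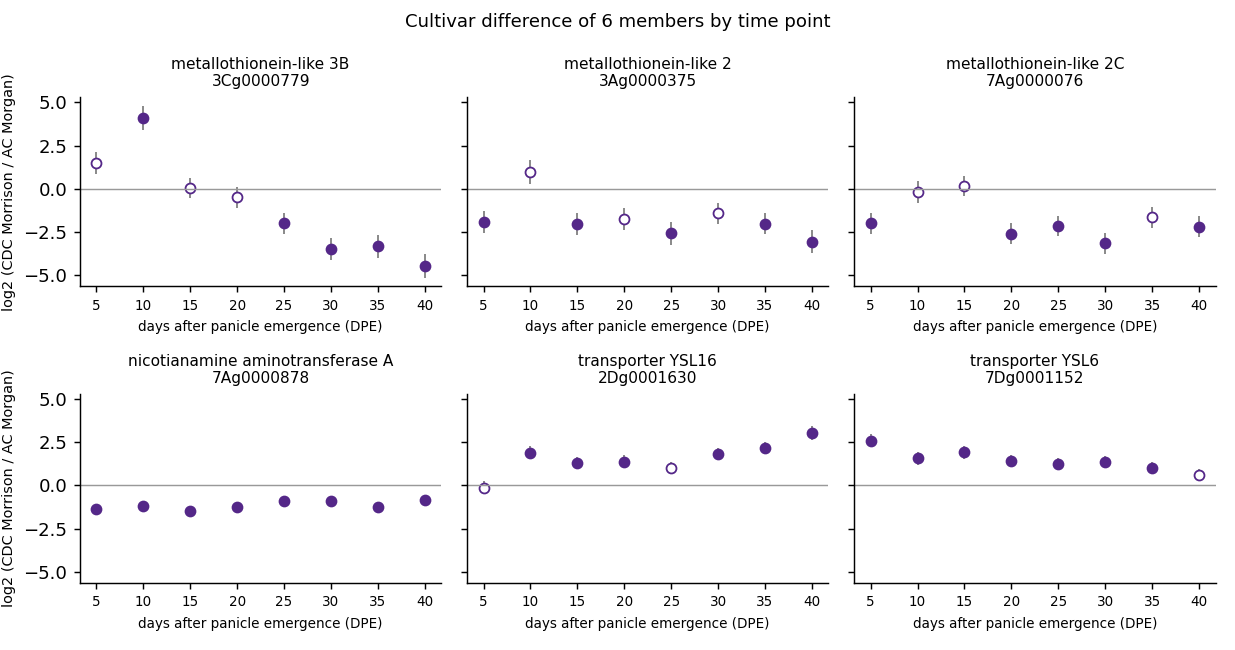
Log2 fold change of CDC Morrison over AC Morgan, with its standard error, at each time of grain development for 6 metal genes, with filled points for differences that passed the test. 7Dg0001152 stays above 0 and 7Ag0000878 below 0, while 3Cg0000779 runs from 4.10 at 10 DPE to -4.45 at 40 DPE.

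In germination, 41 metal genes differed between cultivars in embryo, 23 higher and 18 lower in CDC Morrison, against 31.9% of all genes, 18.7% higher and 13.2% lower. In endosperm 53 differed, 27 higher and 26 lower, against 35.5% of all genes, 18.7% higher and 16.8% lower. With library size alone 19 metal genes were higher in endosperm and 29 lower. The metallothionein 2C gene 4Ag0003869 was detected mainly in AC Morgan: embryo libraries at 48 h held 0.0866, 3.07 and 5.02 CPM in CDC Morrison, against 156, 119 and 130 CPM in AC Morgan. Over the 5 times its log2 fold change in embryo was -4.93 ± 1.08 (adjusted p = 0.000439, edgeR's quasi-likelihood method, Benjamini-Hochberg adjusted). The part of mapping to a common reference in this difference was not tested. Ferritin-4 (5Cg0001983) was higher in CDC Morrison in both tissues, with means of 10.1 CPM in CDC Morrison, against 5.17 CPM in AC Morgan embryo (log2 fold change 0.91 ± 0.19, adjusted p = 0.000111) and of 8.08 CPM in CDC Morrison, against 3.63 CPM in AC Morgan endosperm (1.14 ± 0.21, adjusted p = 1.28e-05). ZIP7 (4Cg0001619) averaged 12.7 CPM in CDC Morrison, against 5.82 CPM in AC Morgan embryo (1.02 ± 0.10, adjusted p = 1.17e-11). The cultivar difference itself differed between embryo and endosperm in 10 genes, against 6.84% of all genes.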

How the data were processed

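Estimated counts per gene, deposited by the authors as 1 table for developing grain and 1 for germination, are not normalized. Per the submitters' processing notes and the study's methods, reads were trimmed (FastQC, Trim Galore) and ribosomal reads were removed (Bowtie2). Transcripts were quantified with Salmon, against a single oat reference transcriptome for both cultivars, and summed to genes. The versions of these tools are not known here. The deposited log2 values are the authors' variance-stabilized normalization by DESeq2. They served as an alternative, and the developing grain libraries present in them were the ones used in the main fit.

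Estimated counts were rounded and genes that reached a count of 5 in 5% of libraries or more were kept, 62030 in developing grain and 62447 in germination. One edgeR 4.0.16 fit per experiment (R 4.3.3, TMM scaling, trended dispersion, 16 and 20 groups taken from the labels) gave quasi-likelihood tests, Benjamini-Hochberg adjusted over every gene tested, with a threshold of 0.05; CPM were divided by TMM-scaled library size. Alternatives were DESeq2 1.42.0, limma 3.58.1 on the deposited log2 values, other scalings and filters, a replicate block, all 48 libraries, and each library left out. On simulated counts for 40 against 25 DPE, 100% of 200 genes with a log2 change of 2 were recovered among 61292, with 13 false calls. The changed genes were drawn from highly counted genes, with as many rises as falls, and no other gene differed between groups. Recovery of genes at low counts, or amid changes as wide as those of the real data, was therefore not measured.

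The metal genes, lists and comparisons were chosen with earlier results of these data known. Genes named were the 3 of each class with the highest mean CPM per experiment and, per comparison, the 6 largest rises and 6 largest falls among called genes reaching 5 CPM, plus, between cultivars, called genes whose libraries never overlapped. Exceptions, among them 6Cg0002051, chosen for its reversal, are marked. No sequences were printed, since none were used here. Tables were made with pandas 2.3.3 and plots with matplotlib 3.10.9 in Python 3.11.15.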

Additional observations from a re-analysis of the deposited data

Results flagged for a closer look

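The change by 48 h of germination differed between embryo and endosperm in 43 of 134 metal genes, against 34.7% of all genes. The test was of the difference itself (edgeR's quasi-likelihood method, Benjamini-Hochberg adjusted). The change was more positive in embryo, on the log2 scale, for VIT2 (5Dg0001929, 2.76), YSL16 (2Dg0001630, 2.62), VIT1 (2Ag0001327, 2.32), YSL9 (2Dg0001628, 1.82) and the VIT1 copies 2Cg0002052 (1.78) and 2Dg0001242 (1.63). For 5Dg0001929 the adjusted p was 0.165 without replicate 1 of AC Morgan endosperm at 0 h, so that this call rests on that library. The change was more negative in embryo for the metallothioneins 1Cg0001463 (-6.29) and 3Cg0000779 (-4.21, or -6.02 without replicate 1 of CDC Morrison endosperm at 0 h), the YSL6 gene 2Cg0001702 (-5.46, or -6.99 without replicate 2 of AC Morgan endosperm at 0 h), the vacuolar iron transporter homolog 2Dg0001609 (-3.98), ZIP10 (7Ag0002971, -3.52) and NAAT1 (7Ag0002821, -3.0, or -3.62 without replicate 2 of CDC Morrison endosperm at 0 h).

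The cultivar difference in developing grain varied with time in 48 of 133 metal genes by the interaction test, against 27.6% of all genes. In germination the cultivar difference differed between embryo and endosperm in 10 of 134 metal genes, against 6.84% of all genes. The log2 fold change of CDC Morrison over AC Morgan was more positive in embryo than in endosperm for the metallothionein 7Ag0000076 (2.1), the aminotransferases 7Ag0002821 (1.55) and 7Dg0001839 (0.94), ZIP7 (4Cg0001619, 0.68) and the YSL2 genes 6Dg0000982 (0.65) and 6Ag0001305 (0.54). It was more negative in embryo for YSL16 (2Ag0001696, -2.03) and for the metallothioneins 1Cg0000164 (-0.85) and 7Cg0001922 (-0.8).

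Replicate 1 of CDC Morrison at 10 DPE, which the comparisons did not use, held 0.0994% of its counts in the metal genes. This was within the 0.0731% to 0.311% of the other developing grain libraries of all times, but below the 0.102% to 0.156% of the others at 10 DPE. The 10 genes with the most counts held 17.4% of its counts, against 1.15% to 1.61% in the others at 10 DPE.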

How the results depend on the processing

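Of the values of named genes, 5779 kept their direction and side of the threshold when single libraries were left out, 431 lost the call and none reversed; under the other settings 3579 kept both, 130 lost the call and 6 changed sign. With library size alone, 3 log2 fold changes at 15 against 5 DPE became -0.1 (VIT1, 2Cg0002052), -0.46 (6Ag0000277) and -0.56 (6Cg0002051), that of YSL6 2Ag0000986 at 40 against 25 DPE became 0.11, and that of 1Cg0000773 between embryo and endosperm at 0 h became 0.12. With limma on the deposited values, that of YSL6 2Dg0003549 at 40 against 25 DPE became 0.05. Counts of called metal genes moved by over 1.5 times in 3 comparisons: endosperm at 6 against 0 h, with 7 called, gave 15 with library size alone and 20 with limma on the deposited values; the 48 h change that differed between tissues, with 43 called, gave 74 with limma; and the cultivar difference that differed between tissues, with 10 called, gave 23 with limma. The cause was not tested. With single libraries left out, called genes numbered 83 to 91 at 15 against 5 DPE, 33 to 39 at 25 against 15 DPE, 93 to 97 at 40 against 25 DPE, 46 to 53 between cultivars in developing grain and 166 to 200 summed over the single times. In embryo they numbered 50 to 57 at 6 h and 94 to 99 at 48 h, and in endosperm 4 to 8 at 6 h and 74 to 78 at 48 h. Between tissues they numbered 48 to 55 at 0 h, 95 to 102 at 48 h and 41 to 48 for the difference in change, and between cultivars 34 to 42 in embryo and 48 to 55 in endosperm. The tests over all times, the interaction and the cultivar difference between tissues were not run with libraries left out. Between cultivars in developing grain, an alternative added after seeing the data left times out of the average. It gave 44 called without 10 DPE and 34 without 10 and 30 DPE, against 51.

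Same-numbered replicates were not paired by any label. The correlation of their deviations was over 0.1 in 17 of 30 embryo and endosperm pairs of the same number, with a lowest value of -0.27. It was over 0.1 in 9 of 60 such pairs of different number, and the medians were 0.13 and -0.049. Germination pairs that differed in time, or in both cultivar and tissue, were over 0.1 in 166 of 510 of the same number. Their highest value was 0.806, and 172 of 1020 of different number were over 0.1. With same-numbered tissues paired within cultivar and time, 53 genes were called between tissues at 0 h and 101 at 48 h, against 56 and 104. The change by 48 h then differed between tissues in 48 genes, against 43, and the cultivar difference in 10, as before. The replicate block gave 88, 40 and 98 called genes at the 3 steps of development, 50 between cultivars there, 61 and 101 in embryo at 6 and 48 h, and 7 and 77 in endosperm, and it moved no count by over 1.5 times. This block was common to both cultivars, so it could not take up a series within a single cultivar. Replicate 1 of CDC Morrison embryo held the lowest share of metal genes in its group at each time, at 0.145% to 0.290%. The other replicates of these groups held 0.185% to 0.598%. The cultivar tests over the germination times took all libraries as separate. Of the 31 genes in developing grain and 30 in germination below the count minimum, those with any count were tested only with no filter, under which 92 genes were called at 15 against 5 DPE.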

Other observations

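At 48 h in endosperm, 2 barley NAATB matches and 1 NAATA match were higher in every CDC Morrison library than in any of AC Morgan, which was seen in the values and was not tested at the single time. Of all 134 metal genes tested, 24 (17.9%) had every CDC Morrison library above every AC Morgan library there and 24 had the opposite order, against 16.4% and 17.5% of all genes. 2Ag0001064 was at 49.9, 54.5 and 34.6 CPM in CDC Morrison, against 3.26, 2.98 and 3.87 CPM in AC Morgan. 2Dg0003631 was at 8.20, 7.53 and 5.10 CPM in CDC Morrison, against 1.34, 0 and 0.484 CPM in AC Morgan, and the NAATA match 2Cg0001791 was at 22.4, 23.0 and 17.8 CPM in CDC Morrison, against 5.94, 4.51 and 3.79 CPM in AC Morgan.

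Among the others of the 24 genes higher in every CDC Morrison library were 2 zinc transporters and 1 metal-nicotianamine transporter. All genes named here were picked from that side after the values were seen, and those of the opposite order are not named. ZIP10 (7Ag0002971) was at 63.6, 62.3 and 70.6 CPM in CDC Morrison, against 15.5, 15.8 and 10.2 CPM in AC Morgan, and its copy 7Dg0001999 was at 67.3, 61.0 and 69.2 CPM in CDC Morrison, against 20.3, 19.2 and 16.5 CPM in AC Morgan. YSL6 (2Dg0003548) was at 76.8, 117 and 96.9 CPM in CDC Morrison, against 48.4, 37.3 and 31.5 CPM in AC Morgan. The alpha-amylase genes, markers of the germinating aleurone, summed to 1910, 7850 and 8380 CPM in CDC Morrison, against 2760, 2520 and 2810 CPM in AC Morgan at that time and tissue, and their part was not tested.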
